A study of Mus musculus with 9 samples.

Results

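Genes of cholesterol and fatty acid metabolism were followed in mouse glioblastoma grown in the brain and in culture. The set was fixed by a list of 38 gene symbols covering sterol synthesis, fatty acid synthesis, the SREBP regulators, uptake and transport inside the cell, and efflux. Of these, 37 were found by symbol in the deposited table of 20778 symbols and all 37 were tested. The sterol reductase gene Tm7sf2 was not analysed here.

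Bulk RNA sequencing covered 3 groups with 3 libraries apiece, 9 in total, all carrying mCherry-labelled GL261, a mouse glioblastoma line, in a C57BL/6 setting. For the tumour group, 50000 GL261 cells were placed in the striatum of male C57BL/6 mice aged 7 weeks with an intact immune system, under ketamine and xylazine, and the brains were resected at day 14. The labels' protocols give 5 mice and do not say which of them supplied the 3 libraries, whose titles speak of whole tumour cells. Both culture groups held GL261, seeded at 1000000 cells per ml, together with primary astrocytes, microglia, pericytes and endothelial cells from brains of male C57BL/6 mice aged 6 to 10 weeks. One was grown on a dish (2D culture) and the other in a fibrin gel (bioink). Before RNA isolation the bioink alone spent 3 h in collagenase II (600 U per ml) to free its cells. Neither the culture medium, its lipid content nor the days in culture are given in the sources used here, and nothing says whether the 3 libraries of a culture group came from separate cultures. The p-values therefore rest on a spread among libraries that may be technical only.

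As background, cells build cholesterol from acetyl-CoA through mevalonate, squalene and lanosterol. The transcription factor SREBP2 (encoded by Srebf2) activates the genes of these steps, and SREBP1 (Srebf1) acts more on those of fatty acid synthesis. When membrane sterol is low, the escort protein Scap carries the SREBPs out of the endoplasmic reticulum to be cut and released, and when it is high, Insig1 and Insig2 hold Scap back. Excess sterol is oxidised to ligands of the nuclear receptors LXRα (Nr1h3) and LXRβ (Nr1h2), which raise the exporters Abca1 and Abcg1 and the lipoprotein Apoe. In the brain, which is screened from lipoproteins of the blood, astrocytes make much of the cholesterol and pass it to other cells on Apoe particles, and microglia and macrophages also express Apoe strongly.

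The values are the authors' normalized counts per gene symbol, rounded to whole numbers, so their read depth is unknown. Library sums ran from 16320090 to 16388074 for tumours, from 15572800 to 15711632 for 2D culture and from 13548461 to 13683978 for bioink. Fold values are ratios of group means, and log2 fold changes are differences of mean log2(value + 1), which understate the change of low genes. Bioink replicate 1 stood apart, with an array weight of 0.236 against 0.688 to 4.96 in the other 8 libraries. The median log2 fold change of the 13773 symbols tested was -0.11 for bioink against tumours as deposited and 0.043 to 0.144 under other scalings, and for bioink against 2D culture it was -0.018 as deposited and up to 0.168. Each value describes a mixture of cells, and fewer cells of a type and less RNA per cell cannot be told apart in it. Markers of seeded microglia were low in both cultures. Tmem119 was listed at 2092, 2142 and 1846 in tumours, at 83, 87 and 69 in 2D culture and at 140, 93 and 75 in bioink. The summed value of 10 microglia markers was 18483 to 19255 in tumours, 681 to 749 in 2D culture and 1194 to 1199 in bioink, with Fcrls at 0 in all bioink libraries. That of 10 astrocyte markers was 5431 to 5838, 6264 to 6491 and 6932 to 7414 in the same order, with Gjb6 at 0 in all 2D libraries. Among all tested symbols, 27.3% rose and 27.0% fell in 2D culture against tumours, and 27.1% and 37.3% in bioink. Of 9 astrocyte markers tested, 4 rose and 3 fell in 2D culture against tumours, and 4 rose and 2 fell in bioink. Gfap, the glial intermediate filament and one of those that fell, was listed at 625, 553 and 603 in tumours, at 163, 187 and 149 in 2D culture and at 367, 362 and 395 in bioink.

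Most genes of sterol and fatty acid synthesis were higher in each culture than in the tumours, and most genes of sterol export and LXR were lower. In 2D culture 25 of 37 genes rose and 6 fell against tumours, where 27.3% of all tested symbols rose and 27.0% fell. In bioink 22 rose and 9 fell, against 27.1% and 37.3% of all symbols. The gene list was chosen with earlier results of these data known, so these counts are a description and not independent support. A gene was called when limma's Benjamini-Hochberg adjusted p, taken over all 13773 symbols, was below 0.05. Between the cultures, 15 of 37 genes were higher in bioink than in 2D culture and 8 lower, where 27.0% and 32.2% of all symbols were. Among all symbols the split for bioink was 3737 higher and 5132 lower against tumours, or 4886 and 3825 at equal library totals, and 3713 and 4435 against 2D culture, or 4710 and 3437 at equal totals. Both comparisons with tumours share the same 3 tumour libraries. The groups did not overlap for 34 genes in 2D culture against tumours (63.9% of all symbols), for 32 in bioink against tumours (67.6%) and for 28 between the cultures (67.1%). Changes that were called and at least 2-fold numbered 14 up and 5 down in 2D culture, against 9.02% and 14.8% of all symbols. They numbered 16 up and 6 down in bioink, against 14.2% and 15.6%. Between the cultures they numbered 6 up and 2 down, against 14.4% and 10.9%. Called in either direction were 31, 31 and 23 genes, against 54.3%, 64.4% and 59.2%. Between the cultures the genes were thus called about as often as all symbols. Against tumours, 20 genes rose in both cultures, 5 fell in both, and Srebf1 alone was called in opposite directions.

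**Figure D1:**
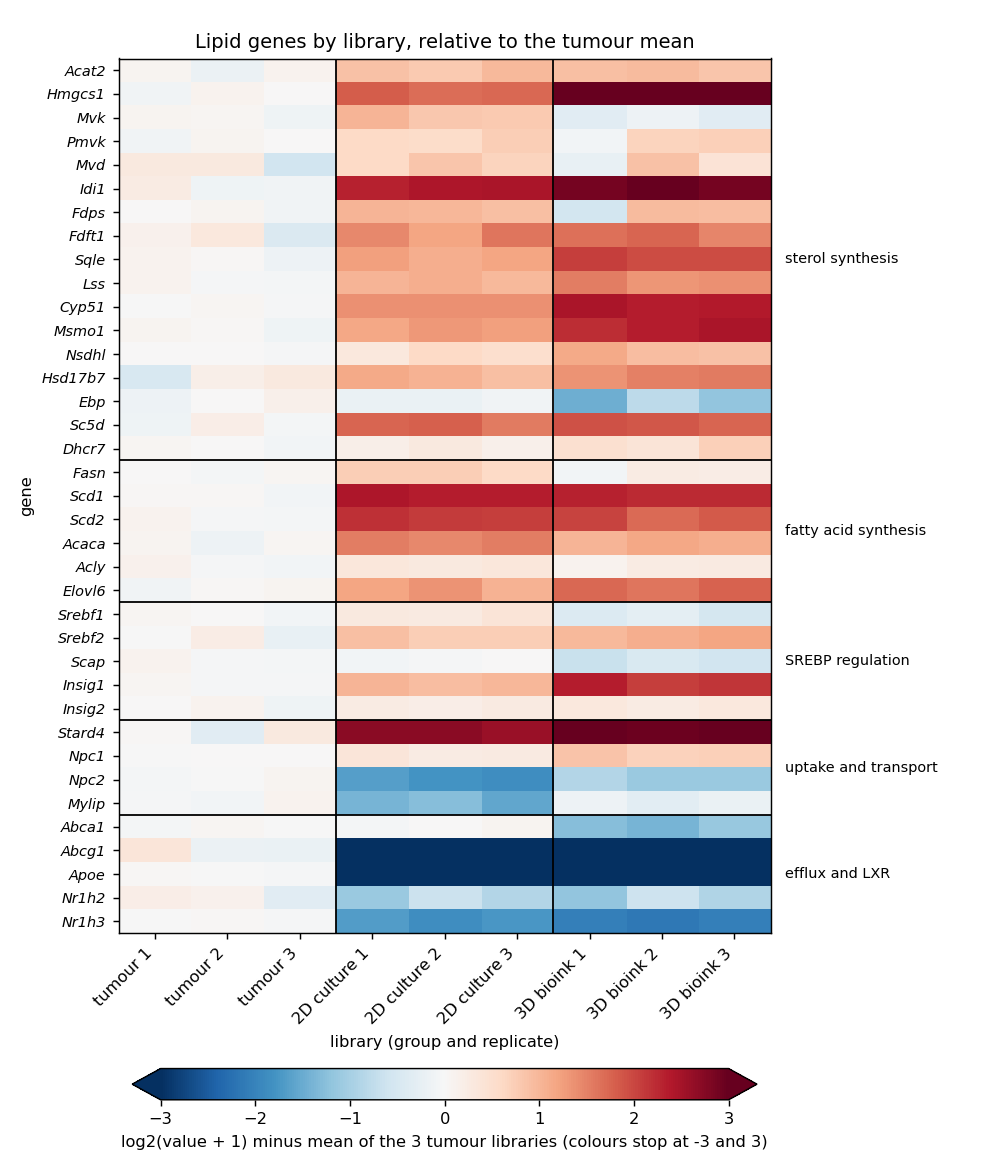
Each cell is the log2 of the normalized count plus 1 in a library (columns) minus the mean of the 3 tumour libraries, for the 37 genes (rows) grouped by role, with colours that stop at -3 and 3. Most sterol and fatty acid synthesis genes are red in all 6 culture libraries, while Abcg1 and Apoe are past the blue end in all 6, and bioink replicate 1 alone is blue for Fdps.

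Most sterol synthesis genes rose in each culture, and most of those that differed between the cultures were higher in bioink. In 2D culture 14 of 17 rose, none fell and 3 did not pass, with a median log2 fold change of 1.02 against 0.0056 over all tested symbols. In bioink 12 of 17 rose, 1 fell and 4 did not pass, with a median of 1.41 against -0.11. Fibroblast markers, of a cell type not named among those seeded, were mostly higher in bioink and mixed in 2D culture. Of 6 tested, 5 rose and 1 fell in bioink against tumours, where 27.1% and 37.3% of all symbols did. In 2D culture 3 rose and 1 fell, where 27.3% and 27.0% of all symbols did. All 6 were higher in bioink than in 2D culture, where 27.0% of all symbols were. The summed value of 7 fibroblast markers was 12852 to 13684 in tumours, with Dpt at 0, then 11783 to 12343 in 2D culture and 21999 to 23761 in bioink. Oligodendrocyte markers went mostly the other way. Of 10, 3 rose and 6 fell in bioink against tumours, and 2 rose and 7 fell in 2D culture. Their sum was 22587 to 26267 in tumours, 18405 to 20175 in 2D culture and 14487 to 15867 in bioink. Sums of neuron, endothelial and pericyte markers were below tumours in 2D culture. In bioink the neuron and pericyte sums were below tumours and the endothelial sum overlapped them. The calls did not always follow the sums. Of 7 pericyte markers tested, 4 rose and 2 fell in bioink (median log2 fold change 0.59), and 2 rose and 4 fell in 2D culture. Of 2 neuron markers tested, 1 rose and 1 fell in bioink, and 1 fell in 2D culture. Of 8 endothelial markers tested, 2 rose and 2 fell in bioink, and 1 rose and 5 fell in 2D culture. The part of these cells in the sterol result was not tested. Hmgcs1 (chromosome 13, 119690379 to 119708260 in GRCm38) encodes the cytosolic HMG-CoA synthase. It was listed at 278, 322 and 304 in tumours, at 1057, 964 and 1001 in 2D culture and at 2885, 2426 and 2575 in bioink. The groups did not overlap, and each bioink library held a higher value than any 2D library. It rose 8.72-fold in bioink (log2 fold change 3.12, SE 0.087, adjusted p = 3.41e-09) and 3.34-fold in 2D culture (log2 fold change 1.74, SE 0.087, adjusted p = 1.24e-07). Bioink exceeded 2D culture 2.61-fold (log2 fold change 1.38, SE 0.087, adjusted p = 7.56e-07).

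The early steps did not move as one. Mvk, mevalonate kinase, acts just after the HMG-CoA steps and was listed at 261, 256 and 226 in tumours, at 504, 434 and 429 in 2D culture and at 194, 224 and 196 in bioink. It was highest in all 3 2D libraries and lowest in all 3 bioink libraries. It rose in 2D culture (log2 fold change 0.88, SE 0.12, adjusted p = 0.000186). It did not pass in bioink against tumours (log2 difference -0.27, 95% interval -0.55 to 0.0015, adjusted p = 0.0752). It was 2.23-fold lower in bioink than in 2D culture (log2 fold change -1.15, SE 0.12, adjusted p = 2.77e-05). With array weights it was called lower in bioink than in tumours (log2 -0.31, adjusted p = 0.0305), whereas at equal totals the difference was near 0 (log2 -0.013, adjusted p = 0.933). Idi1, the isomerase that makes the reactive isoprene unit, had the largest rise of the sterol genes in 2D culture. It was listed at 160, 123 and 125 in tumours, at 676, 730 and 744 in 2D culture and at 1001, 1075 and 997 in bioink, so that the bioink libraries again stood above all others. The fold changes were 5.27 in 2D culture (log2 fold change 2.40, adjusted p = 8.96e-08) and 7.53 in bioink (log2 fold change 2.91, adjusted p = 3.08e-08).

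Fdps, farnesyl diphosphate synthase, depended on a single library. It was listed at 665, 697 and 615 in tumours, at 1325, 1319 and 1229 in 2D culture and at 451, 1270 and 1243 in bioink, with bioink replicate 1 below every tumour library and the other bioink libraries near the 2D values. It rose in 2D culture (log2 fold change 0.97, adjusted p = 0.0294) and did not pass in bioink (log2 difference 0.44, 95% interval -0.29 to 1.17, adjusted p = 0.262). Without bioink replicate 1 it was called higher there too (log2 0.93, adjusted p = 5.19e-06). In 2D culture its call was lost when any single tumour or 2D library was left out (log2 0.92 to 1.01, adjusted p = 0.0582 to 0.079). Pmvk, the next kinase after Mvk, also had bioink replicate 1 within the tumour range and the other bioink libraries near the 2D values. It was listed at 269, 309 and 293 in tumours, at 436, 424 and 484 in 2D culture and at 273, 459 and 479 in bioink. It rose in 2D culture (log2 fold change 0.62, adjusted p = 0.0213), a call lost without tumour replicate 1 (adjusted p = 0.0659) or 2D replicate 3 (adjusted p = 0.0703). It did not pass in bioink (log2 difference 0.43, 95% interval -0.0056 to 0.87, adjusted p = 0.0770). There it was called without bioink replicate 1 (log2 0.69, adjusted p = 0.00043) and under all 4 other scalings (log2 0.62 to 0.69). Mvd, the decarboxylase that follows, was listed at 194, 193 and 106 in tumours, at 240, 283 and 253 in 2D culture and at 135, 294 and 210 in bioink and passed in neither culture. Its log2 differences from tumours were 0.70 in 2D culture (95% interval 0.014 to 1.39, adjusted p = 0.0794) and 0.35 in bioink (95% interval -0.33 to 1.04, adjusted p = 0.332). In 2D culture Mvd was called higher after quantile normalization (log2 0.91, adjusted p = 0.034), with array weights (adjusted p = 0.031), with only the 2 groups compared (adjusted p = 0.0467) and without bioink replicate 1 (adjusted p = 0.0355). Without tumour replicate 3 the Mvd difference was log2 0.41 in 2D culture and 0.067 in bioink. In bioink it was 0.088 without bioink replicate 2 and 0.65 without bioink replicate 1. Between the cultures none of these 3 passed, with log2 differences of -0.53 for Fdps (adjusted p = 0.189), -0.19 for Pmvk (adjusted p = 0.425) and -0.35 for Mvd (adjusted p = 0.357). Without bioink replicate 1 these were -0.038, 0.068 and -0.054, and without bioink replicate 2 Mvd was at -0.61. Acat2, whose product joins acetyl units at the start of the pathway, was listed at 327, 271 and 330 in tumours, at 565, 532 and 609 in 2D culture and at 574, 598 and 551 in bioink. Both cultures stood above the tumours without overlap (log2 fold change 0.88, adjusted p = 5.74e-05 in 2D culture; log2 fold change 0.90, adjusted p = 4.18e-05 in bioink). The cultures did not differ detectably (log2 difference 0.016, 95% interval -0.22 to 0.25, adjusted p = 0.909).

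**Figure D2:**
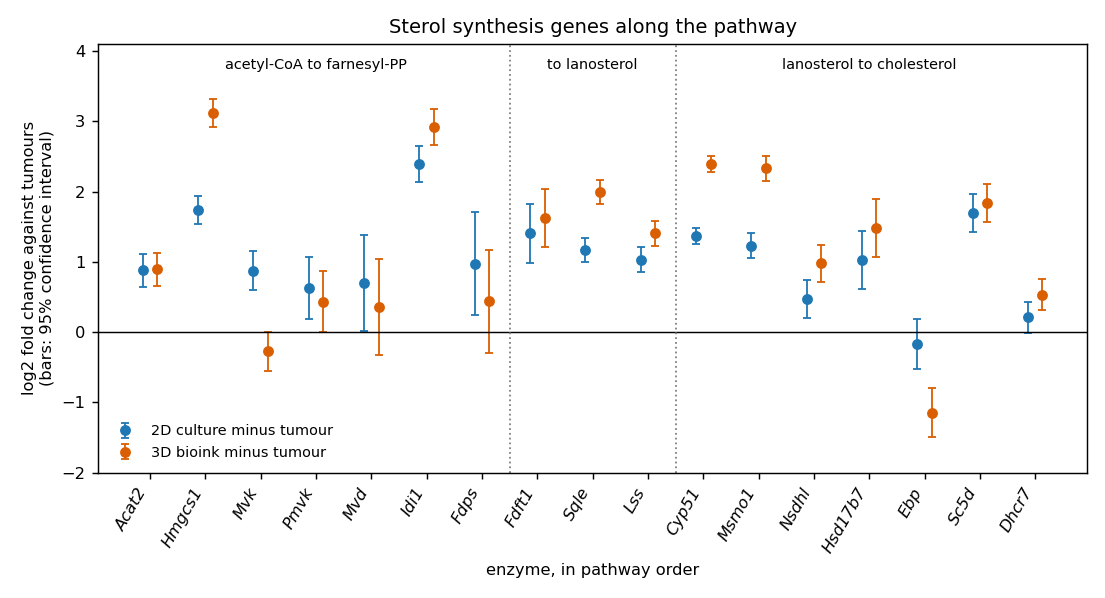
Points give the log2 fold change against tumours of 17 sterol synthesis genes in pathway order, for 2D culture (blue) and bioink (orange), with 95% confidence intervals from limma (n = 3 libraries per group). Hmgcs1, Idi1, Cyp51 and Msmo1 reach the highest bioink values, between 2.33 and 3.12, whereas Mvk and Ebp lie below 0 in bioink.

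All 3 genes of the step from farnesyl diphosphate to lanosterol rose in both cultures. Sqle, the squalene epoxidase that is an oxygen-dependent control point of the pathway, was listed at 679, 643 and 568 in tumours, at 1464, 1347 and 1437 in 2D culture and at 2643, 2433 and 2442 in bioink. Its bioink libraries stood above all 2D libraries (log2 fold change 0.82, SE 0.078, adjusted p = 1.18e-05). Fdft1, squalene synthase, was listed at 345, 390 and 232 in tumours, at 851, 715 and 955 in 2D culture and at 985, 1057 and 876 in bioink. It rose 2.61-fold in 2D culture and 3.02-fold in bioink (adjusted p = 0.000121 and 3.63e-05). No difference between the cultures was detectable (log2 difference 0.22, 95% interval -0.20 to 0.63, adjusted p = 0.340). Lss, which closes the ring to lanosterol, rose 2.04-fold and 2.66-fold (adjusted p = 2.64e-06 and 2.93e-07) and was higher in bioink (log2 fold change 0.38, adjusted p = 0.00222).

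After lanosterol, 5 of 7 genes rose in 2D culture and 6 of 7 in bioink, where 27.3% and 27.1% of all symbols did. Cyp51, the lanosterol demethylase (chromosome 5, 4081145 to 4104746), was listed at 822, 855 and 800 in tumours, at 2135, 2130 and 2150 in 2D culture and at 4516, 4249 and 4266 in bioink. The 3 groups were far apart compared with their spread, and bioink exceeded 2D culture 2.03-fold (log2 fold change 1.02, SE 0.051, adjusted p = 1.82e-07). Msmo1, the sterol methyl oxidase that acts next, was listed at 800, 768 and 690 in tumours, at 1684, 1845 and 1764 in 2D culture and at 3478, 3844 and 4084 in bioink. It was 2.15-fold higher in bioink than in 2D culture (log2 fold change 1.11, SE 0.079, adjusted p = 1.86e-06). Nsdhl, which works with Msmo1 on the same methyl groups, rose less, 1.39-fold in 2D culture and 1.98-fold in bioink (adjusted p = 0.00715 and 5.40e-05). Sc5d, a desaturase late in the pathway, was listed at 138, 175 and 146 in tumours, at 516, 526 and 447 in 2D culture and at 575, 554 and 513 in bioink. It rose 3.24-fold and 3.58-fold (adjusted p = 1.72e-06 and 9.37e-07), and the cultures overlapped (log2 difference 0.14, 95% interval -0.13 to 0.42, adjusted p = 0.343). Hsd17b7, the ketoreductase of the demethylation cycle, was listed at 173, 274 and 295 in tumours, at 528, 497 and 450 in 2D culture and at 618, 688 and 717 in bioink. It rose 1.99-fold and 2.73-fold (adjusted p = 0.000965 and 6.48e-05). It did not pass between the cultures (log2 difference 0.46, 95% interval 0.043 to 0.87, adjusted p = 0.0560), though all 4 other scalings called it higher in bioink (log2 0.56 to 0.65).

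The last isomerase went the other way. Ebp, the emopamil-binding protein that moves the double bond of the sterol ring (X chromosome, 8185329 to 8193512), was listed at 670, 757 and 827 in tumours, at 648, 656 and 691 in 2D culture and at 270, 433 and 330 in bioink. Tumour and 2D libraries stood close together (log2 difference -0.17, 95% interval -0.52 to 0.18, adjusted p = 0.390). All bioink libraries were lower, 2.18-fold below tumours (log2 fold change -1.15, SE 0.16, adjusted p = 0.000126) and 1.93-fold below 2D culture (log2 fold change -0.97, SE 0.16, adjusted p = 0.000449). Dhcr7, which makes cholesterol in the final reduction, was listed at 562, 541 and 505 in tumours, at 609, 657 and 595 in 2D culture and at 753, 698 and 877 in bioink. It rose in bioink (log2 fold change 0.53, adjusted p = 0.000991) and did not pass in 2D culture (log2 difference 0.21, 95% interval -0.010 to 0.43, adjusted p = 0.0980), where 3 of 4 other scalings called it higher (log2 0.26 to 0.31). Its higher level in bioink than in 2D culture (log2 fold change 0.32, adjusted p = 0.0188) was not called without 2D replicate 1 or 3 or bioink replicate 3 (adjusted p = 0.0569 to 0.0731). Bioink exceeded 2D culture for 8 of the 17 sterol genes and was lower for Mvk and Ebp, while 7 did not pass. Of all symbols 27.0% were higher and 32.2% lower. Called in either direction were 10 of the 17 genes and 59.2% of all symbols, so the sterol genes were called about as often. The median of the 17 was 0.32 in that comparison, against -0.018 over all symbols.

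Ratios of genes within a library are free of the scaling between libraries. These pairs were chosen after their values were seen and carry no test. Hmgcs1 to Mvk was 1.07, 1.26 and 1.35 in tumours, then 2.10, 2.22 and 2.33 in 2D culture, then 14.9, 10.8 and 13.1 in bioink. Cyp51 to Ebp was 1.23, 1.13 and 0.967, then 3.29, 3.25 and 3.11, then 16.7, 9.81 and 12.9. In both ratios the 3 groups were separated in the same order.

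Promoter sequence was set beside these differences because Hmgcs1 and Insig1 rose steeply from tumour to bioink while Mvk did not rise. RefSeq windows (GRCm38.p6) from 250 bases before to 50 after each start site were found for 30 of the 38 listed genes. The letters TCACNCCAC, a form of the sterol regulatory element bound by SREBPs, were searched on both strands and found in 1 of these 30, Hmgcs1, and in 1.44% of 27025 genes with a window. CCAAT, the box bound by NF-Y, a known partner of SREBPs, stood on either strand in 22 of 30, among them 14 of 15 sterol synthesis genes, and in 41.1% of all genes. CACGTG, an E-box that SREBPs and other factors can bind, stood in 6 of 30 and 8.09% of all. A match is a description of letters and not a site. The stretches below, on the plus strand and 5′ to 3′, end before the start of the gene. They are chr13:119690101-119690350 for Hmgcs1, chr5:114444019-114444268 for Mvk and chr5:28071162-28071362 for Insig1. Capitals mark TCACNCCAC (Hmgcs1), CCAAT or its reverse ATTGG (all 3) and CACGTG (Insig1).
Hmgcs1: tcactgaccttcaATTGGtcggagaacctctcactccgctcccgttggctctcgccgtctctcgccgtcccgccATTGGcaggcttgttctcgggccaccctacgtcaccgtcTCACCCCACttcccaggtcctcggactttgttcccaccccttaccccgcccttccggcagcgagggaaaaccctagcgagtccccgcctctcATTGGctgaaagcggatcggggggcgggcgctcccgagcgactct
Mvk: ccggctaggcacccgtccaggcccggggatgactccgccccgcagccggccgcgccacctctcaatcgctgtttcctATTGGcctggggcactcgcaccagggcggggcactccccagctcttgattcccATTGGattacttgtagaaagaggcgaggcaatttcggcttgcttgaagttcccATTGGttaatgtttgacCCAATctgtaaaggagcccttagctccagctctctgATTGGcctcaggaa
Insig1: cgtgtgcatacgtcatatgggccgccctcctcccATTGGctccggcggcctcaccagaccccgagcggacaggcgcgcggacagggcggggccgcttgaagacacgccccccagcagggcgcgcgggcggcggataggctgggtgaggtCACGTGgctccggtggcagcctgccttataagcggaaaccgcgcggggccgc
In these stretches CCAAT or ATTGG stood 3 times in the 250 bases of Hmgcs1, 5 times in the 250 bases of Mvk and 1 time in the 201 bases of Insig1. A link between these letters and the differences was not tested.

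The regulators of the pathway split by member. Insig1 (chromosome 5, 28071363 to 28078662), which retains SREBPs in the endoplasmic reticulum and is itself an SREBP target, was listed at 760, 706 and 712 in tumours, at 1469, 1390 and 1454 in 2D culture and at 3734, 3060 and 3205 in bioink. All 3 groups were separate. The gene rose 1.98-fold in 2D culture (log2 fold change 0.99, SE 0.078, adjusted p = 3.22e-06) and 4.59-fold in bioink (log2 fold change 2.19, SE 0.078, adjusted p = 1.61e-08). Between the cultures it differed 2.32-fold (log2 fold change 1.21, SE 0.078, adjusted p = 9.15e-07). Its paralogue Insig2, which has the same retention role, changed little, at 212, 224 and 192 in tumours, at 246, 240 and 254 in 2D culture and at 262, 247 and 259 in bioink. Insig2 passed narrowly in bioink (log2 fold change 0.29, adjusted p = 0.0491), a call lost when any 1 of 8 libraries was left out (adjusted p = 0.0682 to 0.13). The call was also lost with a pseudocount of 10 (adjusted p = 0.0539), with no filter (adjusted p = 0.059) and with only the 2 groups compared (adjusted p = 0.106). Under the 4 other scalings the value was larger (log2 0.47 to 0.56). It did not pass in 2D culture (log2 difference 0.24, 95% interval -0.021 to 0.50, adjusted p = 0.110), nor between the cultures (log2 difference 0.053, adjusted p = 0.713). In 2D culture 3 of 4 other scalings called it higher (log2 0.30 to 0.45, adjusted p = 0.00877 to 0.0495). Insig1 to Insig2 was 3.58, 3.15 and 3.71 in tumours, then 5.97, 5.79 and 5.72 in 2D culture, then 14.3, 12.4 and 12.4 in bioink.

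The genes of both SREBPs also parted. Srebf2, the regulator of sterol genes, was listed at 1719, 1999 and 1483 in tumours, at 3205, 2884 and 2851 in 2D culture and at 3352, 3654 and 3889 in bioink. It rose in 2D culture (log2 fold change 0.79, adjusted p = 0.000128) and in bioink (log2 fold change 1.07, adjusted p = 1.22e-05). The difference between the cultures was called (log2 fold change 0.28, adjusted p = 0.0399) but lost without any of tumour replicate 1, 2D replicates 2 and 3 and bioink replicates 2 and 3 (adjusted p = 0.0551 to 0.128). Under quantile normalization and equal totals that difference was larger (log2 0.54 and 0.48). Srebf1 was listed at 3642, 3497 and 3298 in tumours, at 4244, 4224 and 4510 in 2D culture and at 2596, 2844 and 2399 in bioink. Every 2D library was above, and every bioink library below, the tumour libraries. Srebf1 rose in 2D culture (log2 fold change 0.31, SE 0.069, adjusted p = 0.00336) and fell in bioink (log2 fold change -0.42, SE 0.069, adjusted p = 0.000481). Bioink was lower than 2D culture (log2 fold change -0.73, SE 0.069, adjusted p = 1.21e-05). The fall in bioink kept its sign and missed the threshold after quantile normalization (log2 -0.16, adjusted p = 0.0706) and at equal totals (log2 -0.15, adjusted p = 0.0784). Scap, the escort of both, was listed at 1686, 1530 and 1523 in tumours, at 1489, 1530 and 1600 in 2D culture and at 987, 1145 and 1053 in bioink. It was lower in bioink than in tumours (log2 fold change -0.57, adjusted p = 7.44e-05) and than in 2D culture (log2 fold change -0.54, adjusted p = 0.000139). 2D culture did not differ detectably from tumours (log2 difference -0.036, 95% interval -0.20 to 0.13, adjusted p = 0.708).

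**Figure D3:**
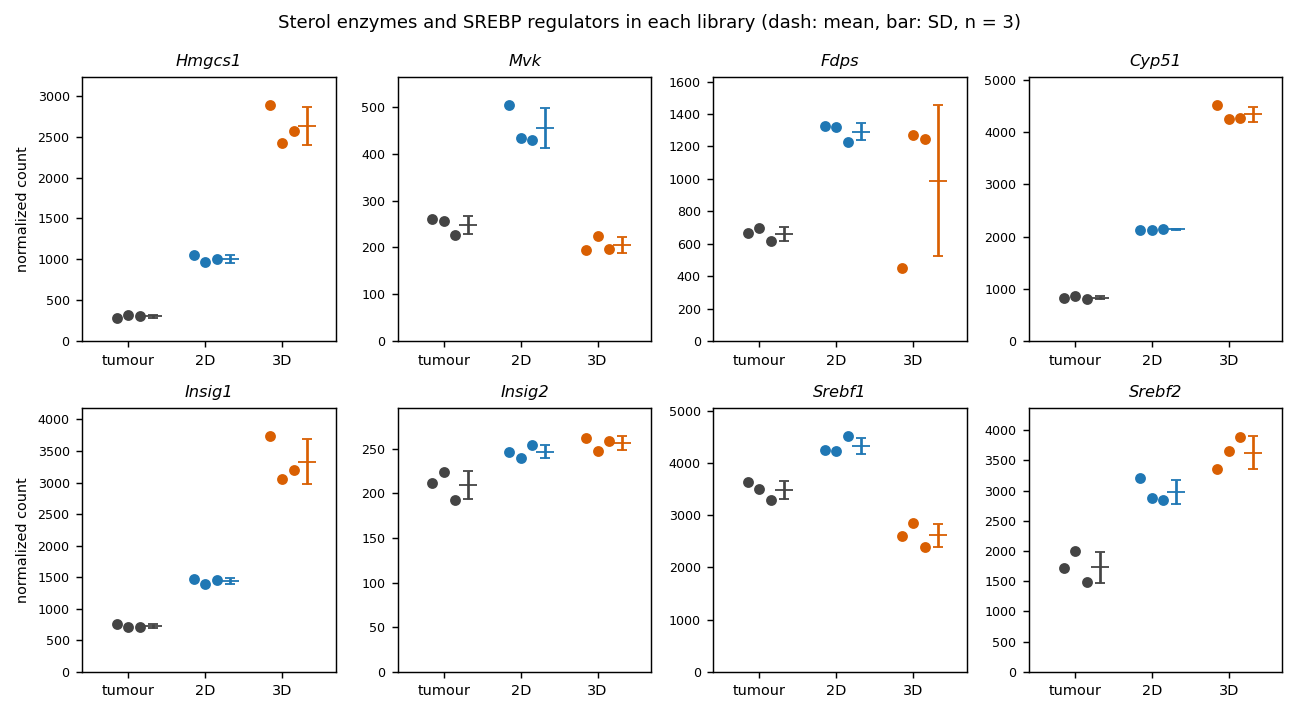
Points are normalized counts of 8 genes in each of the 9 libraries, with the mean and SD of each group (n = 3) at its right, on axes that start at 0. Hmgcs1, Cyp51 and Insig1 climb from tumour to 2D culture to bioink, Mvk and Srebf1 are highest in 2D culture and lowest in bioink, and 1 bioink library of Fdps lies at 451 beside 1270 and 1243.

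Fatty acid synthesis genes rose as well, with the desaturases in front, but here bioink did not exceed 2D culture as a rule. All 6 rose in 2D culture (median log2 fold change 1.34) and 5 of 6 in bioink (median 1.39). Of all symbols 27.3% rose in 2D culture (median 0.0056) and 27.1% in bioink (median -0.11). Scd1 (chromosome 19, 44394455 to 44407879), a stearoyl-CoA desaturase that makes oleic acid, was listed at 2320, 2332 and 2129 in tumours, at 12063, 11512 and 11508 in 2D culture and at 11153, 10576 and 10682 in bioink. The cultures were far above the tumours, 5.17-fold in 2D culture (log2 fold change 2.37, SE 0.051, adjusted p = 4.64e-10) and 4.78-fold in bioink (log2 fold change 2.26, SE 0.051, adjusted p = 1.11e-09). Scd2, its neighbour on the chromosome and the main desaturase of mouse brain, was listed at 7483, 6864 and 6666 in tumours, at 31735, 29916 and 29338 in 2D culture and at 28706, 22563 and 25115 in bioink. It was 4.33-fold (log2 fold change 2.12, adjusted p = 2.62e-08) and 3.64-fold (log2 fold change 1.86, adjusted p = 7.65e-08) above tumours. Their transcripts share 623 aligned bases at 95.5% identity, so reads from that stretch may have been divided between them.

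Fasn, the synthase that builds palmitate, was listed at 6389, 6083 and 6575 in tumours, at 10620, 10671 and 9580 in 2D culture and at 6037, 7543 and 7357 in bioink. The 2D libraries stood above all others (log2 fold change 0.70, adjusted p = 6.97e-05). Bioink overlapped the tumours (log2 difference 0.13, 95% interval -0.060 to 0.32, adjusted p = 0.203) and was 1.47-fold below 2D culture (log2 fold change -0.57, SE 0.085, adjusted p = 0.000283). Against tumours, Fasn was called higher in bioink without bioink replicate 1 (log2 0.23, adjusted p = 0.00582) and under all 4 other scalings (log2 0.31 to 0.51). Acaca, the carboxylase that makes malonyl-CoA, rose from 1185 ± 106 in tumours to 3353 ± 103 in 2D culture and 2514 ± 114 in bioink (SD, n = 3 each), and bioink was lower than 2D culture (log2 fold change -0.42, adjusted p = 0.000728). Acly, which supplies cytosolic acetyl-CoA from citrate to both pathways, was listed at 4246, 3803 and 3658 in tumours, at 4968, 4750 and 4902 in 2D culture and at 4157, 4605 and 4722 in bioink. It rose 1.25-fold in 2D culture (log2 fold change 0.32, adjusted p = 0.00269) and 1.15-fold in bioink (log2 fold change 0.20, adjusted p = 0.0244). The bioink call of Acly was lost without tumour replicate 2 or 3 or without bioink replicate 2 or 3 (adjusted p = 0.066 to 0.0896), while the 4 other scalings gave log2 0.39 to 0.54. Elovl6, which extends palmitate to stearate, the substrate of the desaturases, was listed at 176, 196 and 200 in tumours, at 431, 484 and 393 in 2D culture and at 630, 586 and 647 in bioink. It was the 1 gene of the 6 that was higher in bioink than in 2D culture (log2 fold change 0.51, SE 0.11, adjusted p = 0.00274).

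Between the cultures, Fasn, Acaca and Scd2 were lower in bioink, Elovl6 higher, and Scd1 and Acly did not pass. Of all symbols 32.2% were lower and 27.0% higher. At their smallest, under other scalings, the differences of Fasn and Acaca were log2 -0.24 and -0.20, and both kept their call. Scd2 (log2 fold change -0.26, adjusted p = 0.0237) lost its call under all 4 other scalings (log2 -0.15 to -0.04) and without 2D replicate 1 or 2 or bioink replicate 2 or 3 (adjusted p = 0.0514 to 0.0805). Scd1 (log2 difference -0.11, 95% interval -0.23 to -0.00070, adjusted p = 0.0773) and Acly (log2 difference -0.12, 95% interval -0.27 to 0.035, adjusted p = 0.163) changed sign after quantile normalization, where both were called higher in bioink (log2 0.25 and 0.16). Scd1 was called lower in bioink with array weights (log2 -0.13, adjusted p = 0.0056) and without bioink replicate 1 (log2 -0.14, adjusted p = 0.0386). Scd1 to Fasn was 0.363, 0.383 and 0.324 in tumours, then 1.14, 1.08 and 1.20 in 2D culture, then 1.85, 1.40 and 1.45 in bioink.

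**Figure D4:**
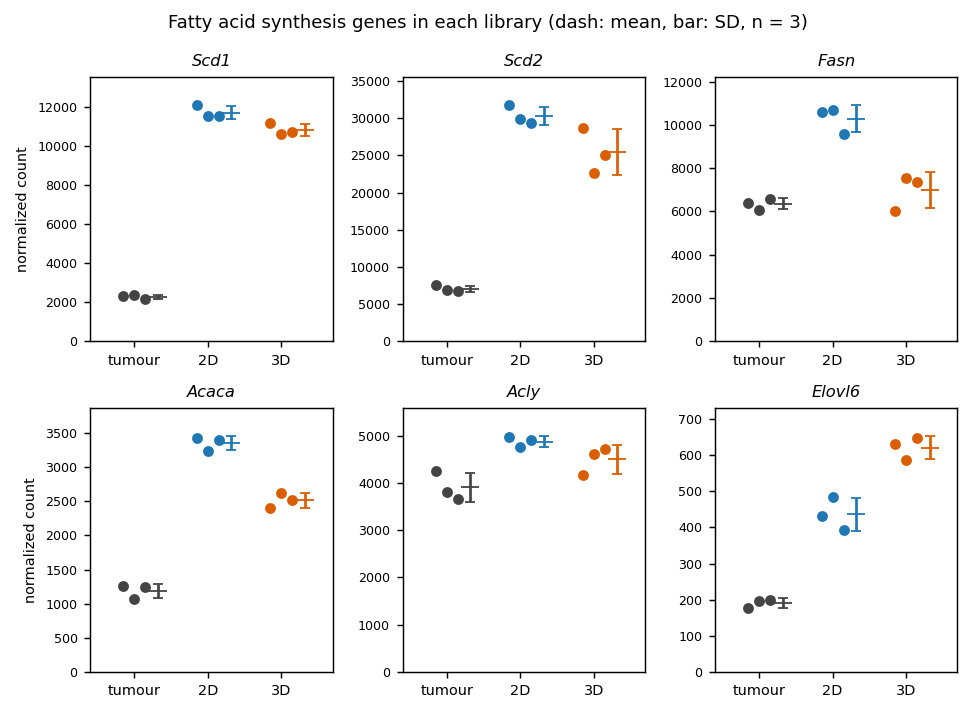
Points are normalized counts of 6 fatty acid synthesis genes in each library, with mean and SD (n = 3), on axes that start at 0. Scd1 and Scd2 form a low tumour group and a high culture group, Fasn and Acaca peak in 2D culture, and Elovl6 peaks in bioink.

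Genes of uptake and of transport inside the cell moved in different directions. Stard4, a soluble carrier that moves cholesterol between membranes and is an SREBP target, was listed at 213, 163 and 255 in tumours, at 1352, 1347 and 1249 in 2D culture and at 1702, 1589 and 1729 in bioink. It rose 6.26-fold in 2D culture (log2 fold change 2.66, SE 0.14, adjusted p = 1.73e-07) and 7.96-fold in bioink (log2 fold change 3.01, SE 0.14, adjusted p = 8.52e-08). The 2 culture groups did not overlap, although the difference missed the threshold (log2 difference 0.35, 95% interval 0.035 to 0.66, adjusted p = 0.0549). It passed under all 4 other scalings (log2 0.45 to 0.54) and without tumour replicate 2 or 3 (adjusted p = 0.00742 and 0.0178). Npc1 and Npc2 together release cholesterol from the lysosome, and their genes parted. Npc1, the membrane partner, was listed at 2051, 2086 and 2107 in tumours, at 2666, 2468 and 2516 in 2D culture and at 3738, 3386 and 3407 in bioink. Npc1 rose in 2D culture (log2 fold change 0.29, adjusted p = 0.00143) and in bioink (log2 fold change 0.75, adjusted p = 1.88e-06). Npc2, the soluble partner, was listed at 1986, 2058 and 2206 in tumours, at 666, 602 and 572 in 2D culture and at 1128, 955 and 958 in bioink. It fell 3.40-fold in 2D culture (log2 fold change -1.76, adjusted p = 1.38e-07) and 2.06-fold in bioink (log2 fold change -1.04, adjusted p = 4.87e-06). No library of Npc2 in either culture came near the tumour values.

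Mylip, also called Idol, is an LXR target that marks lipoprotein receptors for degradation and so limits uptake. It was listed at 878, 854 and 969 in tumours, at 341, 373 and 306 in 2D culture and at 815, 722 and 788 in bioink. The 2D libraries were well below all others (log2 fold change -1.40, SE 0.097, adjusted p = 1.23e-06). Bioink lay just below tumours and did not pass (log2 difference -0.22, 95% interval -0.43 to 0.0027, adjusted p = 0.0769), with a positive sign at equal totals (log2 0.046), and was 2.28-fold above 2D culture (log2 fold change 1.19, SE 0.097, adjusted p = 4.48e-06).

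Efflux and LXR genes were lower in the cultures, apart from Abca1 in 2D culture. In bioink all 5 fell, with a median log2 fold change of -2.08, and in 2D culture 4 of 5 fell, with a median of -1.76. Of all symbols 37.3% fell in bioink (median -0.11) and 27.0% in 2D culture (median 0.0056). Apoe (chromosome 7, 19696109 to 19699188), the lipid-carrying apolipoprotein of brain, was listed at 74332, 73036 and 71885 in tumours, at 216, 204 and 191 in 2D culture and at 499, 1091 and 845 in bioink. Every culture library was far below every tumour library. It was 359-fold lower in 2D culture (log2 fold change -8.48, SE 0.22, adjusted p = 1.57e-09) and 90.0-fold lower in bioink (log2 fold change -6.56, SE 0.22, adjusted p = 1.21e-08). Bioink was 3.99-fold above 2D culture (log2 fold change 1.92, SE 0.22, adjusted p = 4.76e-05). Abcg1, a sterol exporter that loads lipoproteins, was listed at 1164, 803 and 785 in tumours, at 7, 12 and 5 in 2D culture and at 16, 18 and 6 in bioink. It was 115-fold and 68.8-fold lower (log2 fold change -6.72, SE 0.45, adjusted p = 9.35e-07 in 2D culture; log2 fold change -6.10, SE 0.45, adjusted p = 1.76e-06 in bioink). With culture values this low the log2 sizes rest in part on the added pseudocount of 1. The cultures did not differ detectably (log2 difference 0.62, 95% interval -0.39 to 1.63, adjusted p = 0.261), though the call passed without bioink replicate 3 (log2 1.07, adjusted p = 0.0418).

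Abca1, the exporter that loads newly formed particles, did not follow Abcg1. It was listed at 1328, 1453 and 1378 in tumours, at 1339, 1401 and 1455 in 2D culture and at 572, 529 and 627 in bioink. Tumour and 2D libraries overlapped (log2 difference 0.013, 95% interval -0.16 to 0.19, adjusted p = 0.906). Bioink was 2.41-fold below tumours (log2 fold change -1.27, SE 0.077, adjusted p = 5.07e-07) and 2.43-fold below 2D culture (log2 fold change -1.28, SE 0.077, adjusted p = 5.94e-07). Nr1h3, the LXRα gene, was listed at 377, 391 and 374 in tumours, at 118, 104 and 113 in 2D culture and at 91, 85 and 91 in bioink. It fell in both cultures (log2 fold change -1.76, adjusted p = 3.01e-06 in 2D culture; log2 fold change -2.08, adjusted p = 8.80e-07 in bioink). Nr1h2, the LXRβ gene, was listed at 2023, 1902 and 1394 in tumours, at 813, 1116 and 959 in 2D culture and at 764, 1129 and 931 in bioink. All culture libraries lay below the tumours (log2 fold change -0.87, adjusted p = 0.00232 in 2D culture; log2 fold change -0.91, adjusted p = 0.00145 in bioink). Neither LXR gene passed between the cultures (log2 difference -0.32, adjusted p = 0.0691 for Nr1h3; -0.039, adjusted p = 0.869 for Nr1h2). Nr1h3 was called lower in bioink after quantile normalization (log2 -0.56, adjusted p = 0.00682) and with array weights (log2 -0.29, adjusted p = 0.0278).

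Markers of myeloid cells fell in the same libraries as Apoe, Abcg1, Nr1h3 and Npc2. Of 10 microglia markers 9 fell in each culture against tumours. Of 10 macrophage and monocyte markers all 10 fell in 2D culture and 9 in bioink. The share of all symbols that fell was 27.0% in 2D culture and 37.3% in bioink. The summed macrophage value was 33580 to 34691 in tumours, 191 to 223 in 2D culture, with Ly6c2 and Adgre1 at 0, and 502 to 586 in bioink, with Ly6c2 at 0. Between the cultures, 8 of 10 macrophage markers, 2 of 10 microglia markers and 4 of 9 tested astrocyte markers were higher in bioink. Of all symbols 27.0% were higher and 32.2% lower, so the microglia list did not exceed the share of all symbols. None of these 3 lists had a marker called lower. Apoe and Npc2 were also higher in bioink than in 2D culture (log2 fold change 1.92 and 0.72). Abcg1 and Nr1h3 did not pass (log2 difference 0.62 and -0.32), and Nr1h3 was called lower under 2 alternatives, quantile normalization and array weights. The part of these cells in the lower lipid genes was not tested.

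**Figure D5:**
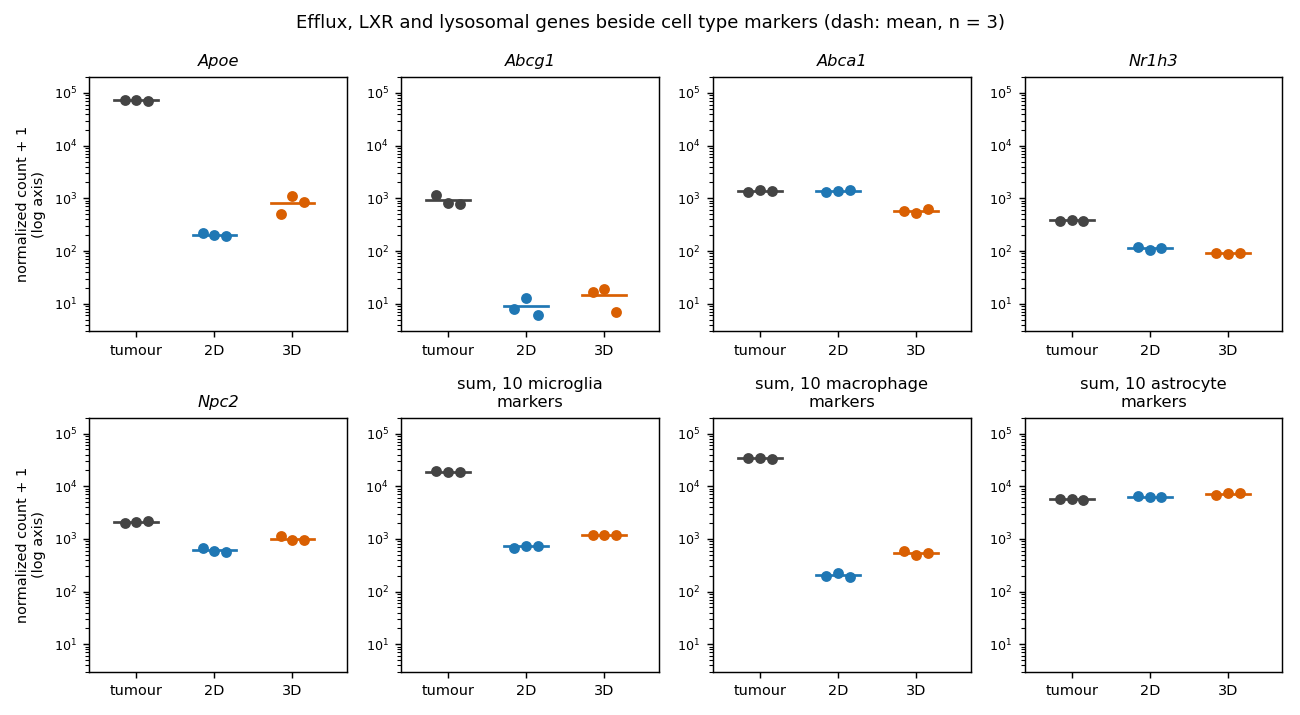
Points are normalized counts plus 1 of 5 lipid genes, and the summed counts of 3 marker lists, in each library on a common log axis, with the group mean as a dash (n = 3). Apoe, Abcg1 and the microglia and macrophage sums drop by large factors from tumour to both cultures, whereas Abca1 overlaps the tumours in 2D culture and the astrocyte sum lies between 5431 and 7414 throughout.

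Other genes of these pathways, from a list of 34 on sterol handling and 32 on fatty acid handling, gave a mixed picture. Of the 34 sterol genes, 7 rose and 11 fell in bioink against tumours (median -0.084), where 27.1% of all symbols rose and 37.3% fell. In 2D culture 7 rose and 10 fell (median -0.066), where 27.3% and 27.0% of all symbols did. Between the cultures 10 were higher and 11 lower in bioink, where 27.0% and 32.2% were. Abca5, a transporter, had the largest fitted rise in bioink (log2 fold change 2.37, adjusted p = 0.00327) from low values, being listed at 5, 2 and 7 in tumours, at 9, 8 and 17 in 2D culture and at 21, 27 and 31 in bioink. Lrp8, a receptor for Apoe particles, was listed at 556, 689 and 510 in tumours, at 1954, 1848 and 1933 in 2D culture and at 1509, 1527 and 1546 in bioink. Lrp8 rose in 2D culture (log2 fold change 1.72, adjusted p = 3.35e-07) and in bioink (log2 fold change 1.39, adjusted p = 1.39e-06). Ch25h, which makes an oxysterol that restrains SREBPs and is induced in activated macrophages, was listed at 300, 291 and 285 in tumours, at 7, 3 and 3 in 2D culture and at 6, 18 and 18 in bioink. It fell in 2D culture (log2 fold change -5.86, adjusted p = 4.04e-06) and in bioink (log2 fold change -4.43, adjusted p = 2.53e-05). Gramd1a and Gramd1b, which carry cholesterol from the plasma membrane to the endoplasmic reticulum, and Pltp, a phospholipid transfer protein, fell in 2D culture by 1.67, 1.94 and 1.68 on the log2 scale (adjusted p = 0.00267, 0.000209 and 4.79e-05) and were higher in bioink than in 2D culture.

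Of the 31 fatty acid genes tested, 9 rose and 8 fell in bioink against tumours (median -0.0048), 13 rose and 5 fell in 2D culture (median 0.20), and 8 were higher and 12 lower in bioink than in 2D culture, to be read against the same shares of all symbols. Acsl3, which activates fatty acids for lipid droplets, was listed at 482, 424 and 510 in tumours, at 1194, 1292 and 1267 in 2D culture and at 4094, 4362 and 4502 in bioink. The groups were separate in that order, with bioink 3.45-fold above 2D culture (log2 fold change 1.79, SE 0.078, adjusted p = 9.22e-08). Lpin1, a phosphatase of triglyceride synthesis, was listed at 76, 77 and 81 in tumours, at 86, 113 and 151 in 2D culture and at 348, 380 and 343 in bioink, and the bioink libraries stood far above all others (log2 fold change 2.18, adjusted p = 9.63e-06). Elovl7, an elongase, rose in bioink (log2 fold change 2.30, adjusted p = 0.000446) and in 2D culture (log2 fold change 1.48, adjusted p = 0.00802). Fabp7, a fatty acid binding protein of radial glia and astrocytes, fell from 274 ± 18.5 in tumours to 15.3 ± 6.66 in 2D culture and 34.3 ± 9.61 in bioink (SD, n = 3 each; adjusted p = 7.74e-06 and 6.68e-05). Acsl5, another acyl-CoA synthetase, fell in bioink (log2 fold change -1.72, adjusted p = 6.02e-06), and Mcat, of mitochondrial fatty acid synthesis, was lower in bioink than in 2D culture (log2 fold change -1.06, adjusted p = 0.000306). Acss2, which makes acetyl-CoA from acetate and was picked after its values were seen, was listed at 223, 227 and 223 in tumours, at 141, 145 and 145 in 2D culture and at 325, 388 and 391 in bioink, below tumours in every 2D library and above them in every bioink library.

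Some of these values may include reads of other loci. In the GENCODE M21 annotation, exons of Fdft1 overlap those of Ctsb on the opposite strand by 774 bases, those of Cyp51 overlap Akap9, Srebf1 overlaps Rai1, and Npc1 overlaps Rmc1, and whether strand was used in counting is not given in the sources used here. Transcripts of Acaca, Elovl6, Fdft1 and Idi1 match processed pseudogenes at 97.4% identity or more, and Acat2 matches Acat3 at 97.7% over 1477 bases, so these are uncertain.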

How the data were processed

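Deposited were the authors' values per gene symbol for 9 libraries, here handled as a score: they are taken to be normalized counts that the authors rounded to whole numbers, from the whole values and the near-equal sums within each group. The submitters' processing notes name kallisto, RSEM, DESeq, DESeq2 1.24.0 and mm10, without role or order, and depth is unknown. Because these are not raw counts, no count test was run. Values were taken as log2(value + 1), and limma 3.58.1 (R 4.3.3) was fitted on 3 group means over all 9 libraries with a trended prior. Its two-sided p-values were adjusted by Benjamini-Hochberg over 13773 symbols with a mean of at least 10, with 0.05 as the threshold. The scripts were tested on simulated data. Replicate numbers did not pair the libraries, so no block was used.

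The members and all gene lists were chosen with earlier results of these data known. Named with values in every library are, per role and comparison, the largest called changes (3, or 2 in lists under 10 genes), and every gene that was not called or moved against most of its list. Of the other pathway genes, the 3 largest called rises and falls per list are named, among genes whose higher group averaged 100 or more, and Abca5, Acss2, Lbr and Erlin1 were added after their values were seen. Alternatives were other pseudocounts (0.5 and 10), filters (none, and a mean of 50), 4 scalings, array weights, a replicate block, only the groups compared, and each library left out. Annotation came from GENCODE M21 and similar transcripts from blastn 2.17.0 (at least 300 bases at 95% identity).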

Additional observations from a re-analysis of the deposited data

Results flagged for a closer look

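For 4 genes the changes against tumours in the 2 cultures were called in opposite directions in limma. The bioink minus 2D culture contrast is the difference of those 2 changes, so its call follows from them and adds no separate support. Srebf1, the SREBP1 gene, differed by -0.73 on the log2 scale. Its fall in bioink against tumours missed the threshold after quantile normalization (adjusted p = 0.0706) and at equal totals (adjusted p = 0.0784). Lbr, a sterol reductase of the nuclear envelope, differed by -0.94 and Erlin1, an endoplasmic reticulum protein that restrains SREBPs, by -1.04, both higher than tumours in every 2D library and lower in every bioink library. Acss2, which makes acetyl-CoA from acetate, differed by 1.35, with the opposite order. The last 3 were picked after their values were seen, and both comparisons share the tumour libraries. These 3 were not followed under other scalings, and the Lbr fall in bioink against tumours was small (log2 fold change -0.27, adjusted p = 0.0173).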

How the results depend on the processing

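All 9 counts of called genes stayed within 1.5 times their value under all 20 alternatives: for bioink against tumours 20 to 25 higher and 8 to 10 lower, for 2D culture against tumours 23 to 28 higher and 6 lower, and for bioink against 2D culture 13 to 19 higher and 7 to 10 lower. Of 2220 single-gene values, 2100 kept direction and call, 49 gained a call, 45 lost one and 26 changed sign. The changes of sign concern values that were not called as reported, and the cause was not tested. At equal totals the log2 values were 0.046 for Mylip (bioink against tumours), 0.029 for Scap (2D culture against tumours) and, for bioink against 2D culture, 0.0056 for Pmvk, 0.083 for Scd1, 0.079 for Acly and 0.16 for Nr1h2. At equal medians they were 0.059 for Scap and 0.066 for Nr1h2. At equal upper quartiles, for bioink against 2D culture, they were 0.055 for Scd1, 0.050 for Acly and 0.13 for Nr1h2. Quantile normalization gave 0.25, 0.16, -0.50 and 0.13 for Scd1, Acly, Abcg1 and Nr1h2. Array weights gave 0.075, -0.0091 and -0.15 for Pmvk, Acat2 and Abcg1. Leaving out single libraries gave -0.064 to 0.012 for Scap and -0.018 to 0.047 for Abca1 in 2D culture against tumours, and for bioink against 2D culture -0.34 to 0.068 for Pmvk, -0.031 to 0.066 for Acat2 and -0.18 to 0.10 for Nr1h2.

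Same-numbered libraries did not deviate together: over 9 pairs r was -0.033 to 0.080, and 1 of 9 libraries correlated best with its own number. With the replicate block, 21 genes were higher and 9 lower in bioink against tumours, 25 and 6 in 2D culture against tumours, and 14 and 8 in bioink against 2D culture. Over all symbols the block gave 8795, 7357 and 8039 calls, against 8869, 7474 and 8148 without it. Among calls near the threshold, the block gave adjusted p = 0.0856 for Insig2 (bioink against tumours) and 0.0535 for Srebf2 (bioink against 2D culture). Depth is unknown, so no counting error can be set beside the low values of Abcg1 and Ch25h in the cultures.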
